A study of Mus musculus with 9 samples.

Results

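Brown adipose tissue of mouse embryos at E15.5 was compared with the same tissue 1 day earlier, at E14.5, over all 30915 entries of the gene-level value table. The E15.5 group held 3 arrays and the E14.5 group held 3, out of 9 arrays in the series; the other 3 came from E16.5 and appear below as levels at the next stage. All embryos were wild-type C57Bl6J mice that received no treatment. Each array carried RNA from a separate preparation that pooled the brown fat of 3 embryos, so the spread between arrays is a spread between pools, not between embryos. The arrays were Affymetrix MoGene-2_0-st, and every level below is a log2 RMA value per gene, which ranks arrays for 1 gene but does not rank genes against each other. The question was which functions change on the first day, with weight on transcription regulators, secreted proteins and cell surface proteins other than the best-known markers of brown fat.

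Brown fat burns fuel to make heat, using mitochondria that carry an uncoupling protein. In the mouse embryo it forms between the shoulders from mesenchyme that shares an origin with skeletal muscle and dermis. Committed cells leave the cell cycle, are driven by nuclear receptors and C/EBP factors, and fill with lipid and mitochondria before birth. Progenitors of this kind are surrounded by secreted signals and by matrix that pattern the tissue, and by growing nerves and vessels that read guidance cues.

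The 6 arrays were alike in scale, with medians between 4.8 and 4.85, and Pearson's r over all entries was 0.9975 to 0.9980 within a stage and 0.9820 to 0.9851 between stages. A floor for each array was set at the 95th percentile of its 1469 olfactory and vomeronasal receptor entries, genes not known for a role in fat, and lay between 4.34 and 4.41 at E15.5 and between 4.26 and 4.32 at E14.5. The tissue label was checked with 8 brown fat genes, whose summed linear level was 12150 to 12660 at E15.5 and 6362 to 7385 at E14.5. Among them, the lineage factor Ebf2 was already high at both stages, with 11.39, 11.34 and 11.45 at E15.5 and 11.23, 11.02 and 11.11 at E14.5. Ucp1, the uncoupling protein, had 5.55, 5.55 and 5.48 at E15.5 and 4.23, 4.65 and 4.50 at E14.5, so it lay near the floor at the earlier stage. Markers of other cell types moved as well. Of 37 skeletal muscle markers, 35 fell and 0 rose, with a median of -1.23 against 0.03 over all entries. Their summed linear level was 14670 to 17730 at E15.5 and 30780 to 31850 at E14.5, and no muscle marker lay at or under the floor on all arrays of either stage. Leukocyte markers summed to 7003 to 7555 at E15.5 and 8373 to 8848 at E14.5, and neuron and Schwann cell markers to 908.7 to 994.5 at E15.5 and 1601 to 1679 at E14.5. Cartilage and bone markers summed to 1511 to 1692 at E15.5 and 2614 to 2711 at E14.5. Of these 22 markers, 2 rose and 8 fell, with a median of 0.06. Only Sox9 fell at least 2-fold (-1.63 ± 0.09), so the lower sum does not show a fall of the whole list. Mural and smooth muscle markers summed to 7106 to 7475 at E15.5 and 8872 to 9292 at E14.5. In such bulk samples, fewer cells of a type and less RNA per cell cannot be told apart, and the part of these cells in the falls described below was not tested.

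By limma's moderated test with Benjamini-Hochberg adjustment over all entries, 4546 entries rose (14.7%) and 4723 fell (15.3%) at an adjusted p under 0.05. At least 2-fold, 503 rose (1.63%) and 721 fell (2.33%), and these percentages are the background for the counts of each gene group. Large changes were mostly rises: 29 entries rose at least 8-fold and 1 fell as far. Of the 503 risers, 484 were above the floor on all 3 E14.5 arrays, and of the 721 fallers, 651 were above it on all 3 E15.5 arrays, so most genes changed level without appearing or vanishing at this detection limit. The best-known fat cell markers made up 33 of the 503 risers and 3 of the 721 fallers, and the muscle list made up 23 of the fallers.

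Beyond those markers, the largest rises belonged to genes of varied function. Adhfe1, a mitochondrial enzyme that oxidises gamma-hydroxybutyrate, had levels of 10.63, 10.82 and 10.83 at E15.5 and 7.01, 6.95 and 6.94 at E14.5. The change was 3.80 ± 0.07 on the log2 scale (SE, 3 arrays per stage), or 13.9-fold, at a limma adjusted p of 6.17e-07. The stages were far apart and each was tight, and the level was 11.66 to 11.73 on the E16.5 arrays. Adck3, whose current symbol is Coq8a, is a kinase-like protein needed for coenzyme Q synthesis, and it had 9.98, 10.32 and 10.29 at E15.5 and 6.46, 6.5 and 6.66 at E14.5. Mpzl2, an immunoglobulin-type adhesion protein, had 8.29, 8.56 and 8.66 at E15.5 and 4.73, 4.92 and 4.99 at E14.5. No E15.5 value of either gene came near an E14.5 value, and the folds were 12.7 for Adck3 and 12.3 for Mpzl2. Other rises of this size were those of the annexin Anxa8 (10.3-fold), Strip2 of the striatin-interacting family (10.1-fold), the lipid droplet galectin Lgals12 (9.01-fold), the calcium-binding protein S100a1 (8.29-fold), the peptide transporter Slc15a2 (7.79-fold) and the inositol trisphosphate kinase Itpka (7.66-fold).

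**Figure D1:**
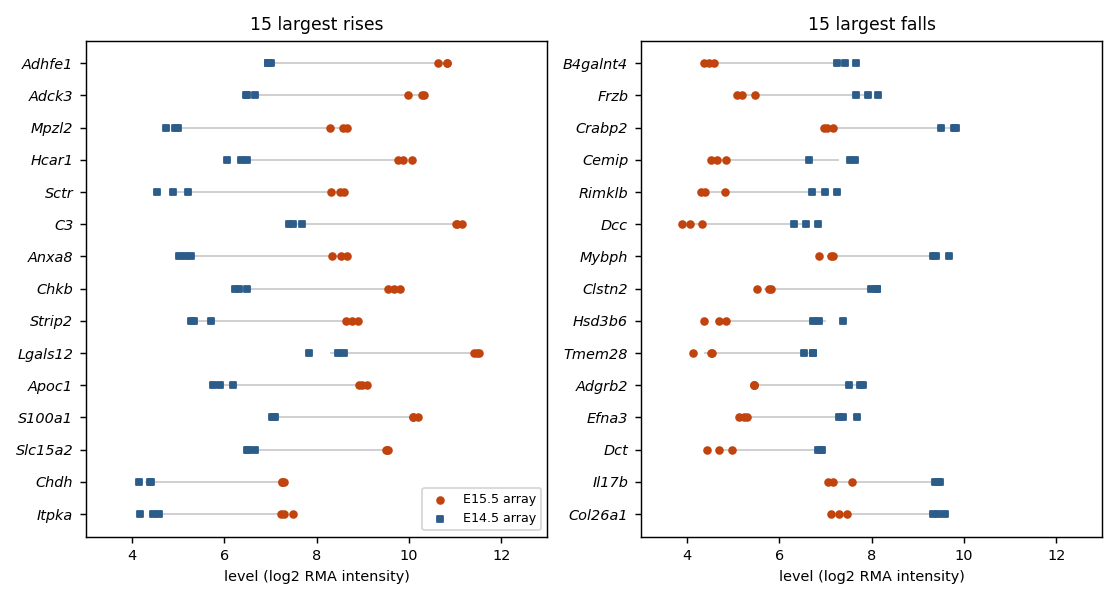
Levels (log2 RMA intensity) on each E15.5 array (circles) and each E14.5 array (squares) for the 15 largest rises and 15 largest falls outside the best-known fat cell markers; grey lines join the stage means. These 30 genes were chosen among those whose 2 stages do not overlap. Over all entries, 23.1% lay wholly higher and 19.7% wholly lower at E15.5. The rises reach 3.80 while the falls reach -2.97 on the log2 scale.

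The largest falls were smaller and mostly concerned the cell surface and the surroundings of cells. B4galnt4, a glycosyltransferase, had 4.59, 4.48 and 4.36 at E15.5 and 7.24, 7.42 and 7.67 at E14.5, which is 7.83-fold lower at E15.5 (log2 change -2.97 ± 0.12, limma adjusted p = 6.04e-06). Crabp2, which carries retinoic acid to its nuclear receptors, had 7.16, 7.04 and 6.97 at E15.5 and 9.51, 9.78 and 9.82 at E14.5. B4galnt4 lay near the floor at E15.5, whereas Crabp2 stayed above it and was lower again at E16.5, at 5.52 to 5.82. Cemip, which breaks down hyaluronan, was the least even of the group, with 4.52, 4.64 and 4.85 at E15.5 and 7.65, 7.54 and 6.65 at E14.5. Replicate 3 of E14.5 was the lowest of its stage. It lay above every E15.5 array, as the rule for naming genes required. Other large falls were those of the synaptic adhesion protein Clstn2 (5.17-fold lower), the orphan adhesion receptor Adgrb2 (4.71-fold lower) and the ephrin Efna3 (4.69-fold lower). The cytokine Il17b was 4.50-fold and the collagen Col26a1 4.48-fold lower. Genes of other cell types fell as far, namely the muscle gene Mybph (5.34-fold lower) and the pigment cell gene Dct, given below.

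Transcription factors as a class moved less often upward than downward. Of 1218 measured, 17 rose at least 2-fold (1.40%) and 47 fell (3.86%), with a median change of -0.02. The class also holds cofactors and chromatin proteins, among its fallers Lmo3, Eya1, Zfpm1 and Hmga2. Of the 17 risers, 4 were best-known fat cell factors and 13 were not. Nuclear receptors, ligand-gated factors that read lipids and hormones, were more often up than down: of 47 members, 16 rose and 4 fell, and 6 rose at least 2-fold (12.8%) while 0 fell as far. Nr1h3, the liver X receptor that senses oxysterols, had 8.31, 8.45 and 8.38 at E15.5 and 6.86, 7.07 and 7.28 at E14.5, a 2.49-fold rise. Rxrg, a partner of many of these receptors, rose 2.45-fold, with 8.02, 8.03 and 8.02 at E15.5 and 6.84, 6.86 and 6.49 at E14.5. The estrogen-related receptors Esrra and Esrrg, orphan receptors that drive mitochondrial genes, rose by 1.28 ± 0.08 and 1.01 ± 0.17 on the log2 scale. Nr0b1, an orphan receptor that lacks the usual DNA-binding domain and acts as a repressor, rose by 1.26 ± 0.06 while it lay close to the floor at E14.5.

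Risers outside the nuclear receptors were few and came from several families. Srebf1, which drives lipid synthesis genes, had 9.60, 9.77 and 9.73 at E15.5 and 8.25, 8.18 and 8.23 at E14.5, a 2.79-fold rise. Lipid synthesis genes among the best-known markers went both ways. Scd1 (-1.42 ± 0.11) and Fasn (-0.69 ± 0.08) fell, while Dgat1 (1.33 ± 0.05) and Dgat2 (1.55 ± 0.05) rose. Atoh1, a bHLH factor best known in neural and sensory progenitors, had 6.19, 6.23 and 6.18 at E15.5 and 4.78, 4.70 and 4.75 at E14.5. All 3 E15.5 values of Atoh1 lay above 6, all 3 E14.5 values lay under 5, and the rise was 2.74-fold (limma adjusted p = 3.41e-06). Hoxa4 was the 1 member of 39 Hox cluster entries to rise at least 2-fold, with 8.92, 9.14 and 8.99 at E15.5 and 7.76, 7.44 and 7.47 at E14.5. The clock factor Npas2, the glucocorticoid-responsive Klf15 and the repressors Bcl6 and Zbtb16 rose 2.05- to 2.47-fold. Among 148 coactivators, corepressors and chromatin enzymes, 5 rose at least 2-fold (3.38%) and 4 fell (2.70%). Ppargc1b, a coactivator of mitochondrial genes and relative of Ppargc1a, had 9.87, 9.90 and 10.07 at E15.5 and 8.02, 7.72 and 7.92 at E14.5. Its rise was 4.18-fold, and that of Sirt3, the mitochondrial deacetylase, was 3.27-fold.

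**Figure D2:**
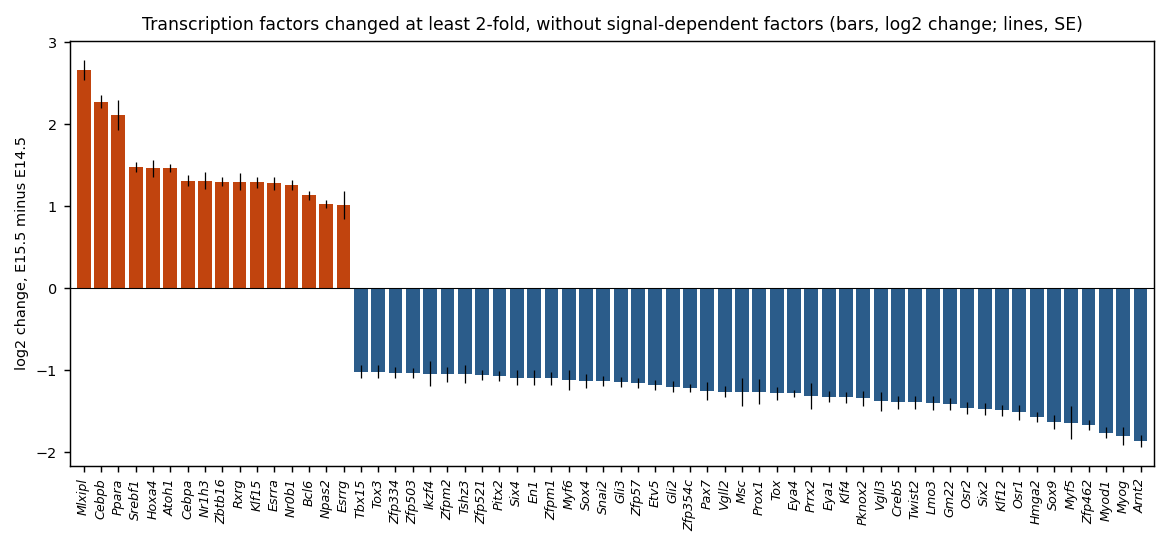
Log2 change, E15.5 minus E14.5, of the transcription factors that changed at least 2-fold, without the family of signal-dependent factors; bars give the change and thin lines its SE from limma (3 arrays per stage). Risers stand on the left and fallers on the right, where Arnt2 and the myogenic factors Myog and Myod1 fell farthest.

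Several of the factors that fell are known from mesenchymal and muscle progenitors. Of the 47, 5 belong to the muscle marker list: Myog, Myod1, Myf5, Myf6 and Pax7, whose falls ran beside the lower muscle signal given above. Myod1, which commits cells to muscle, had 6.76, 6.64 and 6.59 at E15.5 and 8.38, 8.38 and 8.51 at E14.5. Arnt2, a bHLH-PAS partner factor, fell by 1.86 ± 0.07 on the log2 scale, with 6.43, 6.30 and 6.43 at E15.5 and 8.23, 8.35 and 8.18 at E14.5. Sox9, the master factor of cartilage and also a marker of adipose progenitors, had 9.16, 8.94 and 8.79 at E15.5 and 10.53, 10.64 and 10.61 at E14.5 (3.09-fold lower). The values of Sox9 stayed well above the floor and were lower again at E16.5, at 6.96 to 7.26. The fetal chromatin protein Hmga2 fell by 1.57 ± 0.06, the paired zinc finger factors Osr1 and Osr2 of embryonic mesenchyme by 1.51 ± 0.09 and 1.46 ± 0.07, and the zinc finger protein Zfp462 by 1.67 ± 0.06. Among Klf, Sp, Egr, Gli, Zic and Snail factors, 11 of 85 fell at least 2-fold (12.9%), among them the hedgehog effectors Gli2 (-1.20) and Gli3 (-1.14). No forkhead factor of 44 changed at least 2-fold (1 rose without E14.5 replicate 1), and of 423 zinc finger proteins named Zfp or Zscan 0 rose and 7 fell at least 2-fold (1.65%).

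Secreted proteins showed the most one-sided counts of the 3 classes. Of 976 entries, 14 rose at least 2-fold (1.43%) and 91 fell (9.32%). The lists follow gene families, so this class also holds membrane-bound proteins, among its fallers Efna3, Efna4 and Flrt2. The 14 risers came from the lists of hormones and adipokines, lipoproteins, complement, matrix, proteases and TGF-beta genes. C3, the central complement component, had 11.02, 11.14 and 11.03 at E15.5 and 7.49, 7.40 and 7.68 at E14.5, and rose by 3.54 ± 0.08 on the log2 scale (limma adjusted p = 1.77e-06). Cfd, the protease adipsin that acts in the same alternative pathway, had 6.53, 6.87 and 6.65 at E15.5 and 4.81, 4.96 and 4.94 at E14.5. The receptor C3ar1 was lower at E15.5 (-0.79 ± 0.07), and Cfb, which joins C3 in the convertase, was at -0.01. Apoc1, a lipoprotein component that inhibits lipoprotein lipase, had 8.99, 9.10 and 8.91 at E15.5 and 6.18, 5.75 and 5.90 at E14.5. Angptl8, another protein that restrains lipoprotein lipase, had 8.08, 8.31 and 8.08 at E15.5 and 5.55, 5.35 and 5.69 at E14.5. The rises were 8.31-fold for Apoc1 and 6.17-fold for Angptl8. Nampt, an enzyme of NAD synthesis that is also secreted, rose 2.97-fold, the retinol carrier Rbp4 rose 2.64-fold, and the matricellular protein Smoc1 rose 3.04-fold. Levels of Smoc1 were 10.28 to 10.42 and of Rbp4 9.37 to 9.76 at E16.5, so neither was above its highest E15.5 value at the next stage.

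Falls ran through the families of developmental signals. Of 43 Wnt and hedgehog ligands and secreted antagonists, 9 fell at least 2-fold (20.9%) and 0 rose. The Wnt antagonist Dkk2 had 7.17, 6.87 and 6.89 at E15.5 and 8.87, 9.04 and 8.93 at E14.5. Sfrp1 and Sfrp2, which bind Wnt proteins outside the cell, fell by 1.29 ± 0.07 and 1.45 ± 0.05 on the log2 scale, and Frzb, of the same family, was 6.32-fold lower. Antagonists were not alone in this: the Wnt enhancers Rspo2 (-1.73 ± 0.10) and Rspo3 (-1.18 ± 0.07) and the ligand Wnt2b (-1.28 ± 0.14) fell with them. Of 56 members of the TGF-beta family and its antagonists, 13 fell at least 2-fold (23.2%) and 1 rose. Ligands among the fallers were Bmp2, Bmp4, Bmp7, Gdf10, Gdf11, Mstn, Tgfb2 and Tgfb3, at -1.02 to -1.45. The antagonists Fst (-1.65), Nbl1 (-1.41) and Grem1 (-1.24) and the latency protein Ltbp1 (-1.80) fell as well, while its relative Ltbp2 rose by 1.11 ± 0.05. Of 67 growth factor ligands, 8 fell at least 2-fold (11.9%) and 0 rose, and of 44 collagens, 4 fell (9.09%) and 0 rose.

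Matrix glycoproteins and proteoglycans repeated this count, with 19 of 111 down at least 2-fold (17.1%) and 2 up. Egfl6, a basement membrane protein, had 8.86, 8.85 and 8.65 at E15.5 and 10.90, 10.85 and 10.87 at E14.5, 4.24-fold lower. Fras1 and Frem2, partners in a complex that anchors epidermis to dermis, fell by 1.73 ± 0.06 and 1.64 ± 0.10. The fibrillins Fbn1 and Fbn2 fell by 1.09 ± 0.09 and 1.32 ± 0.09. Vitronectin, Vtn, rose 2.23-fold. Among 200 extracellular proteases, inhibitors and matrix-modifying enzymes, 17 fell (8.50%), including 6 Adamts metalloproteases at -1.08 to -1.96, and the serine protease Htra1 was the 1 riser, at 2.32-fold.

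**Figure D3:**
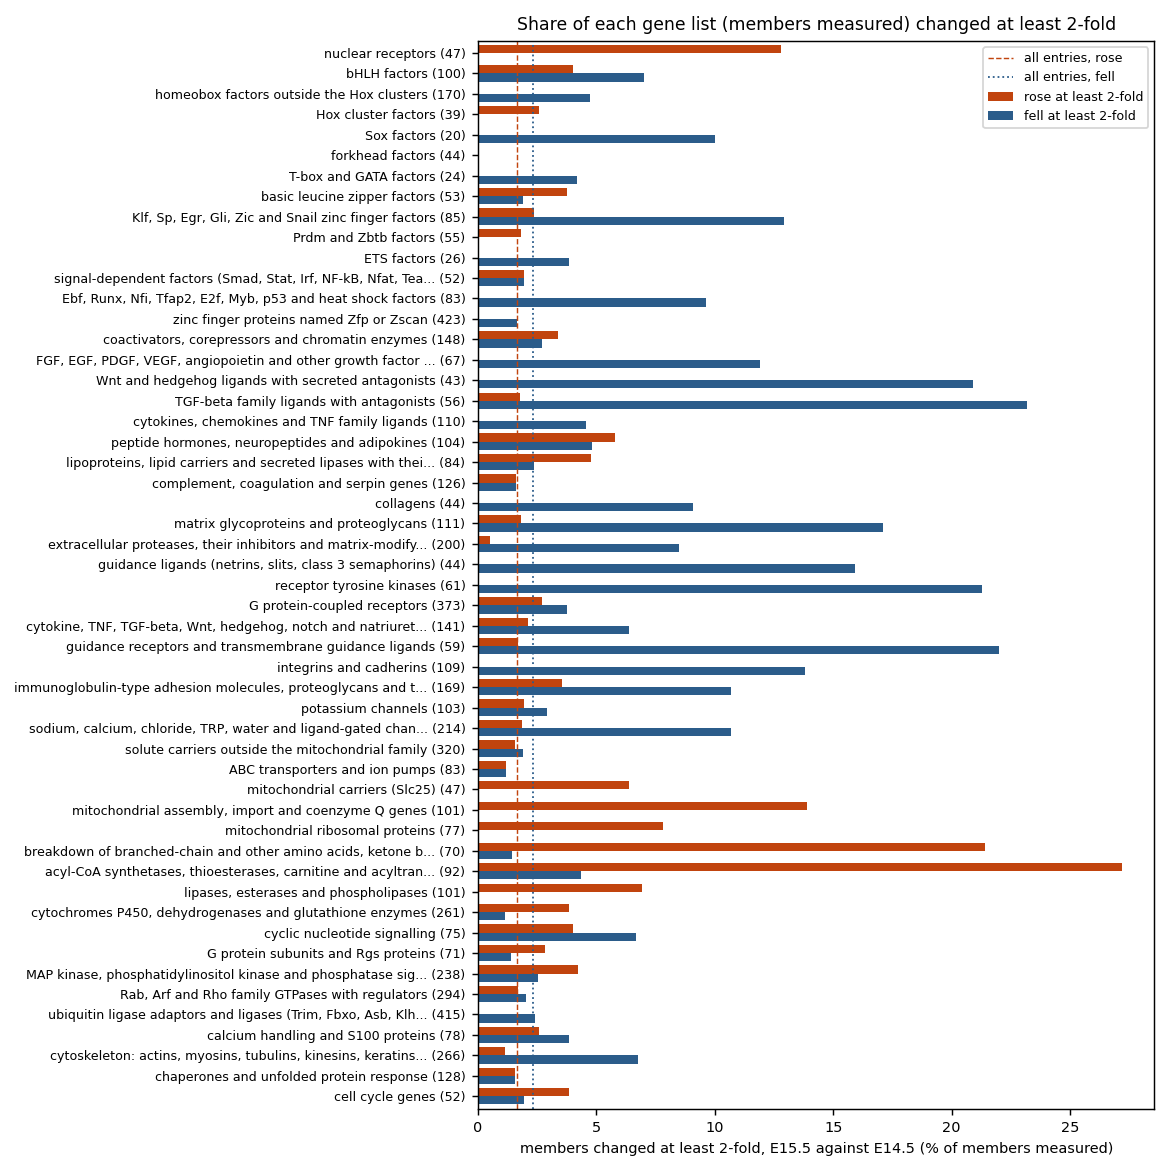
Percent of the measured members of each gene list (number measured in brackets) that rose (red bars) or fell (blue bars) at least 2-fold at E15.5 against E14.5; the dashed and dotted lines mark the same percentages over all entries, 1.63% and 2.33%. Among lists that are not markers, rises peak in those of acyl-CoA and amino acid enzymes at 27.2% and 21.4%, and falls in signalling ligand and guidance lists at 23.2% and 22.0%.

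Surface genes fell more often than they rose. Of 1632 entries, 32 rose at least 2-fold (1.96%) and 115 fell (7.05%), and 25 of the 32 risers were not among the best-known markers. G protein-coupled receptors supplied 10 risers of 373 (2.68%) and 14 fallers (3.75%), and several risers bind metabolites or hormones. Sctr, described below, is in neither this list nor the surface total. Hcar1, a receptor for lactate that restrains lipolysis in fat cells, had 9.77, 10.07 and 9.87 at E15.5 and 6.35, 6.06 and 6.49 at E14.5. This was a rise of 3.60 ± 0.12, or 12.2-fold (limma adjusted p = 4.31e-06), with more than 3 log2 units between the nearest arrays of the 2 stages. Its neighbour in function Hcar2, which binds butyrate-like ligands, had 5.42, 5.56 and 5.42 at E15.5 and 3.98, 4.37 and 4.06 at E14.5. Ffar4, a receptor for long-chain fatty acids, had 6.40, 6.53 and 6.48 at E15.5 and 4.57, 5.31 and 5.03 at E14.5. Hcar2 lay at or near the floor at E14.5, so its 2.51-fold rise may be understated, and Ffar4 rose 2.84-fold. Of the other fatty acid receptors, Ffar2 rose by 0.31 ± 0.08, and Ffar1 (0.16) and Ffar3 (0.12) did not pass the test.

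Several hormone receptors rose. Sctr, the receptor for the gut hormone secretin, had 8.32, 8.50 and 8.59 at E15.5 and 4.53, 5.22 and 4.88 at E14.5. It rose 12.1-fold, while none of the other 14 measured receptors of the secretin family rose; Vipr2 fell by 0.59 and 13 did not pass. Tshr, the thyrotropin receptor, had 6.86, 7.23 and 6.95 at E15.5 and 5.12, 4.86 and 4.81 at E14.5 (4.24-fold). The melanocortin receptors Mc5r and Mc2r rose 3.74-fold and 2.77-fold, beside their accessory protein Mrap, one of the best-known markers, at 17.6-fold. Mc4r, another member, was lower (-0.38), and Mc1r and Mc3r did not pass. Adra1d, an alpha-1 adrenergic receptor, had 8.06, 8.10 and 8.03 at E15.5 and 6.25, 6.26 and 6.58 at E14.5, a rise of 3.25-fold. Among 75 genes of cyclic nucleotide signalling, 8 rose and 23 fell, of which 3 rose at least 2-fold (4.0%) and 5 fell as far (6.67%). The risers were the mitochondrial kinase anchor Akap1 (2.71-fold), the kinase subunit Prkar2b (2.17-fold) and the phosphodiesterase Pde3b (2.10-fold), which ends the cyclic AMP signal in fat cells on insulin's command.

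Lgr5 and Lgr6, receptors for R-spondins, moved in opposite directions. Lgr5 had 4.73, 4.91 and 4.69 at E15.5 and 6.94, 6.74 and 6.54 at E14.5. Lgr6 had 7.63, 7.92 and 7.80 at E15.5 and 6.21, 6.15 and 6.37 at E14.5. The changes were -1.96 ± 0.11 for Lgr5 and 1.54 ± 0.09 for Lgr6, and Lgr4 was at -0.02 and did not pass. Lgr6 was higher still at E16.5, at 9.73 to 9.91, while Lgr5 lay at 3.94 to 4.35 there.

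Other risers in the surface lists were channels and junction proteins. These lists follow gene families, so an intracellular channel can be among them. Aqp11, an intracellular water channel, rose 3.17-fold, the cation channel Trpc1 2.57-fold and the silent potassium channel subunit Kcns3 2.25-fold. The tight junction protein Cldn15 (3.77-fold), the tetraspanin Tspan12 (3.44-fold), the endothelial Cd300lg (3.13-fold) and the junction protein F11r (2.48-fold) rose as well. Of 169 immunoglobulin-type adhesion molecules, proteoglycans and tetraspanins, 6 rose at least 2-fold (3.55%) and 18 fell (10.7%), a list that does not hold Mpzl2, with Alcam and Sdk2 each 4.0-fold lower. Integrins and cadherins had 0 risers and 15 fallers (13.8% of those measured). The mesenchymal cadherin Cdh11 was among them, with 10.07, 9.82 and 9.74 at E15.5 and 11.31, 11.43 and 11.34 at E14.5. Of 214 sodium, calcium, chloride and ligand-gated channels, 23 fell (10.7%), and 4 of these are acetylcholine receptor subunits of the muscle list.

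Receptor tyrosine kinases and guidance receptors fell without a matching set of risers. Of 61 receptor tyrosine kinases, 13 fell at least 2-fold (21.3%) and 0 rose. Ror1, a receptor for Wnt5a, had 8.34, 8.32 and 8.32 at E15.5 and 9.93, 10.20 and 10.01 at E14.5, 3.30-fold lower. Erbb3, a neuregulin receptor that Schwann cells use, had 6.82, 6.71 and 6.84 at E15.5 and 8.54, 8.38 and 8.35 at E14.5. Its partner Erbb2 (-1.32 ± 0.06), its relatives Egfr (-1.12 ± 0.07) and Erbb4 (-0.66), and the ligand Nrg1 (-1.31 ± 0.10) fell too, whereas Nrg4, a neuregulin that brown fat secretes in adult mice, rose by 0.76 ± 0.06. Erbb3 is also in the list of neuron and Schwann cell markers, of which 9 of 22 fell and 0 rose. The GDNF co-receptors Gfra1 and Gfra2 fell by 1.76 ± 0.07 and 1.57 ± 0.10, and Ret, the signalling receptor they serve, was at 0.09 and did not pass.

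Axon guidance ligands and receptors, which steer nerves, vessels and migrating cells, went down on both sides of each system. Over slits with Robo, netrins with Dcc and Unc5, class 3 semaphorins with neuropilins and plexins, and ephrins with Eph receptors, 39 of 52 genes fell (75.0%, against 15.3% of all entries) and 1 rose. These systems were chosen with the results known. In the slit system, Slit2 had 5.45, 5.55 and 5.39 at E15.5 and 6.95, 7.04 and 6.86 at E14.5. Its receptor Robo1 had 8.21, 8.11 and 7.90 at E15.5 and 9.70, 9.74 and 9.78 at E14.5, and Robo2 had 6.24, 6.24 and 6.0 at E15.5 and 7.97, 8.08 and 7.96 at E14.5. Ligand and both receptors were 2.80- to 3.58-fold lower. Dcc, the netrin receptor, had 4.33, 4.06 and 3.89 at E15.5, all at or under the floor, and 6.31, 6.58 and 6.83 at E14.5. Netrin Ntn1 fell by 0.92 ± 0.08 and neogenin, Neo1, by 0.74 ± 0.06, and the 1 riser of all these systems was Unc5a (0.39 ± 0.07). Sema3a (-1.27), Sema3d (-1.31) and the co-receptor Plxna3 (-1.17) fell, while the semaphorin receptor Nrp2 (0.04) did not pass. Among ephrins and Eph receptors, Efna3, Epha7 (-1.70 ± 0.05), Epha3 (-1.64 ± 0.12) and Efnb3 (-1.60 ± 0.06) fell farthest.

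**Figure D4:**
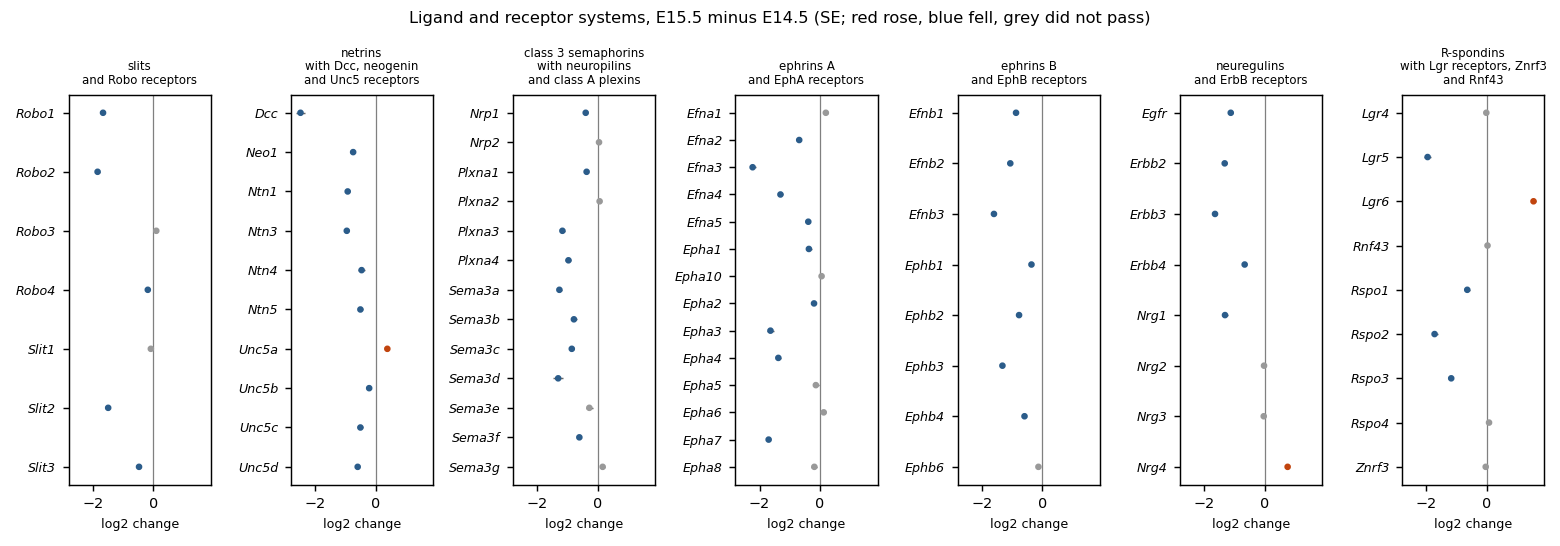
Log2 change, E15.5 minus E14.5, for each measured ligand and receptor of 7 signalling systems; points give the change and horizontal lines its SE from limma (3 arrays per stage), red for genes that rose, blue for genes that fell and grey for genes that did not pass. Most points lie left of 0, Lgr6, Nrg4 and Unc5a rose, and the other points right of 0 are grey.

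Inside the cell, mitochondrial construction rose broadly rather than steeply. Of 101 genes for assembly, import and coenzyme Q, 84 rose (14 at least 2-fold, 13.9%) and 1 fell, with a median of 0.61. Mitochondrial ribosomal proteins had 71 of 77 risers and 0 fallers at a median of 0.62, yet 6 reached 2-fold. Coq5, an enzyme of coenzyme Q synthesis, rose 2.85-fold, and with Adck3, Coq3 (1.47) and Coq9 (1.34) it gave 4 coenzyme Q genes at 2-fold or more.

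Among lists that are not markers, that of acyl-CoA synthetases, thioesterases, carnitine and acyltransferase enzymes had the highest share of large rises. Of its 92 genes, 25 rose at least 2-fold (27.2%) and 4 fell (4.35%). Breakdown of amino acids also had a high share. Of 70 genes, 15 rose at least 2-fold (21.4%) and 1 fell. Aldh6a1, the last step of valine breakdown, had 9.94, 10.17 and 10.08 at E15.5 and 7.98, 7.87 and 8.08 at E14.5. Hibch, which acts before it, had 8.87, 8.87 and 8.94 at E15.5 and 7.11, 7.21 and 7.22 at E14.5. The folds were 4.26 and 3.28, and the 3 subunits of the branched-chain keto acid complex, Bckdha, Bckdhb and Dbt, rose by 1.07, 1.04 and 1.02. Further along, Mcee (1.46) and Mut (1.22), which turn propionate into succinate units, rose as well. The 1 faller was Bcat1 (-1.36 ± 0.05), the cytosolic transaminase that opens the same route.

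Large rises were also found among choline enzymes. Chdh, the mitochondrial enzyme that oxidises choline toward betaine, had 7.24, 7.29 and 7.24 at E15.5 and 4.15, 4.40 and 4.38 at E14.5, a 7.70-fold rise. Chkb, choline kinase beta, had 9.54, 9.81 and 9.68 at E15.5 and 6.48, 6.31 and 6.23 at E14.5. The Chkb value is uncertain, because Cpt1b is the next gene in the reference annotation and has no entry of its own in the table. The transporter Slc44a3 rose 5.48-fold, and Chpt1 and Pemt, which make phosphatidylcholine, rose 2.62-fold and 2.38-fold. Of 18 genes in this set, which was chosen with the results known, 6 rose and 4 fell, and Slc44a2, another choline transporter, was lower at -0.79 ± 0.05.

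Smaller groups also moved. Of 16 carbonic anhydrases, which interconvert carbon dioxide and bicarbonate, Car4 (3.90-fold), Car2 (3.73-fold) and the mitochondrial Car5b (2.89-fold) rose at least 2-fold. The metal-binding Mt1 had 8.96, 8.96 and 8.93 at E15.5 and 6.47, 6.5 and 6.56 at E14.5 (5.44-fold), and Mt2 rose 2.67-fold. The oxygenase Cyp2u1 (6.97-fold), the glutathione enzyme Mgst3 (5.98-fold) and the epoxide hydrolase Ephx2 (4.79-fold) act on fatty acids and their oxidised products. Insulin signalling adaptors were among the kinase pathway risers: Irs4 had 10.70, 10.77 and 10.62 at E15.5 and 9.0, 8.78 and 8.92 at E14.5, Sh2b2 rose 3.76-fold and Irs3 rose by 1.41 ± 0.12. The phosphatase Dusp4, which ends ERK signals, rose 4.43-fold. Of 52 cell cycle genes, 20 rose (38.5%, against 14.7% of all entries) and 8 fell (15.4%, against 15.3%), with a median of 0.1. The 2-fold changes were those of inhibitors and went both ways. Cdkn2c had 9.36, 9.38 and 9.45 at E15.5 and 7.44, 7.38 and 7.41 at E14.5 (3.97-fold). The antiproliferative Tob1 rose 3.06-fold, and the imprinted inhibitor Cdkn1c fell by 1.01 ± 0.08.

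Few genes went from undetected to detected. An entry was said to cross the floor when it passed, changed at least 2-fold, and had all 3 arrays of one stage at or under the floor and all 3 of the other above it. By that rule 7 entries crossed upward (0.0226%) and 28 downward (0.0906%). The 7 were Acvr1c, Adig and Lep from the best-known markers, the aldehyde dehydrogenase Aldh1a7, the G protein regulator Rgs7, the vault RNA Vaultrc5 and 1 gene model. Rgs7, which shortens signals of Gi-coupled receptors, had 5.08, 5.30 and 5.11 at E15.5 and 3.96, 4.16 and 4.09 at E14.5, and was at least 1.84-fold higher when set against the floor. It went on to 6.98 to 7.43 at E16.5. Vaultrc5 passed by little, with 5.55, 4.79 and 4.54 at E15.5 and 4.24, 3.41 and 4.04 at E14.5 (limma adjusted p = 0.0342). Of the 28 downward entries, 13 were gene models and 7 were miRNA genes. Dcc was at least 4.56-fold lower, the lipid transporter Mfsd2a at least 2.75-fold lower, the LIM-only cofactor Lmo3 at least 2.13-fold lower and the receptor phosphatase Ptprz1 at least 1.76-fold lower. Bpifa6, Gabrg1, Miat and Chst3 also crossed, and D330045A20Rik and Gm6307, counted among the gene models by their deposited names, now have the symbols Radx and Mir1a-1hg.

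The miRNA genes pointed to 1 imprinted cluster on chromosome 12, picked out after its values were seen. Between Meg3 and Mirg lies a long stretch of noncoding RNAs made from the maternal chromosome, and it carries many miRNA genes. Of 51 miRNA entries in that stretch, 49 fell and 44 of them fell at least 2-fold, with a median of -1.81, against -0.05 over all 559 miRNA entries. Elsewhere in the genome, 15 entries named as miRNA genes fell at least 2-fold and 0 rose, and the 15 include the host RNA Mir99ahg. Entries on this array type read the hairpin region of the transcript and do not separate the mature arms, and the entries of the stretch lie on shared precursor RNAs, so they are not independent. Mir376b had 3.22, 3.70 and 4.82 at E15.5 and 7.21, 7.03 and 6.10 at E14.5. Mir667 had 6.27, 6.60 and 7.80 at E15.5 and 9.62, 9.59 and 9.14 at E14.5. In both, replicate 3 of E15.5 was the highest of its stage and replicate 3 of E14.5 the lowest of its stage. That order held on replicate 3 of E15.5 for 43 of the 44 entries and on replicate 3 of E14.5 for 41, and the median SD was 0.50 at E15.5 and 0.33 at E14.5, against 0.07 over all entries at each stage. The cause of this spread was not tested, and all 44 had separate stages, as had 19.7% of all entries in that direction. Without E15.5 replicate 3 the count was 43, and without E14.5 replicate 3 it was 45.

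The long RNAs of the locus fell with less spread. Mirg had 7.02, 6.80 and 7.21 at E15.5 and 8.70, 8.55 and 8.36 at E14.5, 2.88-fold lower. Meg3 fell by 1.14 ± 0.13, Rian by 0.93 ± 0.08 and Rtl1, from the other parental chromosome, by 0.85 ± 0.06. Dlk1, the fat cell differentiation inhibitor made from the paternal chromosome, fell by 0.20 ± 0.04, and Dio3 at the far end (-0.08) did not pass. At the next stage the levels were lower again for Meg3, at 6.55 to 6.73, and for Mirg, at 6.09 to 6.44.

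**Figure D5:**
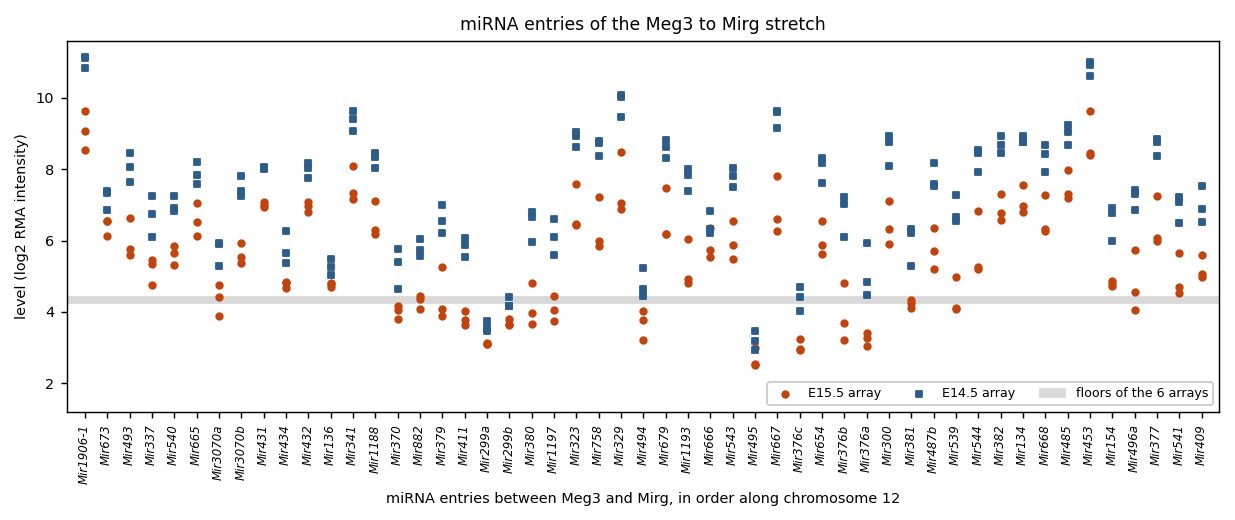
Levels (log2 RMA intensity) on each E15.5 array (circles) and each E14.5 array (squares) for the 51 miRNA entries between Meg3 and Mirg, in their order along chromosome 12; the grey band spans the floors of the 6 arrays. The 44 entries that fell at least 2-fold have all E15.5 points under all E14.5 points, while the stages overlap for Mir666 and Mir495, which did not pass.

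Mature sequences from RefSeq were found for all 44 entries, 79 in all, and 8 seeds (bases 2 to 8, which pair with target transcripts) were shared by 2 entries of the stretch. Examples are printed to show which lowered genes would make products with the same seed, in capitals, with GRCm38.p6 positions on the plus strand. Lines that share a seed stand next to each other, and the arm is part of each name.
miR-376b-5p at chr12:109723471-109723492: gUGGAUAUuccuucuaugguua
miR-376c-5p at chr12:109722733-109722754: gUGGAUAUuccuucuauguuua
miR-379-3p at chr12:109709102-109709123: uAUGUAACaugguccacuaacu
miR-411-3p at chr12:109710225-109710246: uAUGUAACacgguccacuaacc
miR-1193-5p at chr12:109715716-109715735: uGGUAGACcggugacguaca
miR-379-5p at chr12:109709065-109709085: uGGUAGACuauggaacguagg
miR-758-5p at chr12:109712823-109712843: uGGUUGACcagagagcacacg
miR-1197-5p at chr12:109712361-109712381: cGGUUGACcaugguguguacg
Mir379 shares a seed with Mir411 through its 3p arm and with Mir1193 through its 5p arm. Its entry had 3.89, 4.08 and 5.26 at E15.5 and 7.0, 6.56 and 6.20 at E14.5. Mir411 crossed the floor, with 3.78, 3.63 and 4.03 at E15.5 and 6.08, 5.88 and 5.55 at E14.5, at least 2.74-fold lower. The other genes of these pairs, Mir376b, Mir376c, Mir1193, Mir758 and Mir1197, changed by -1.35 to -2.87. Of these, Mir376c was near the floor at E14.5, with 4.71, 4.42 and 4.02, and under it at E15.5, with 2.96, 2.92 and 3.23.

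Promoter windows from RefSeq (GRCm38.p6, 250 bases before to 50 after each start) were searched on both strands for 5 motifs, as a description. The E-box CAGCTG, bound by myogenic factors, was in 12 of 30 windows of the muscle list (40%), in 21.6% of windows of genes that fell at least 2-fold, in 15.8% for genes that rose and in 16.3% of all 32851 windows. TATAAA was in 33.3% of muscle windows, 9.41% for fallers, 7.80% for risers and 13.6% of all. The C/EBP letters TTGCNNAA were in 8.01% of windows for risers, 7.65% for fallers and 10.8% of all. The direct repeat bound by PPAR with RXR was in 0 windows of either set and in 0.0396% of all. The letters TCAAGGTCA, read by estrogen-related receptors and overlapping one repeat unit, were in 0.205% for risers, 0.196% for fallers and 0.423% of all. Windows were found for 390 of the 503 risers and 414 of the 721 fallers. The acetylcholine receptor subunit genes Chrna1 and Chrng, both of muscle, held the E-box at 2 places each, shown in capitals in the 250 bases before their starts.
Chrna1 at chr2:73580339-73580588, minus strand: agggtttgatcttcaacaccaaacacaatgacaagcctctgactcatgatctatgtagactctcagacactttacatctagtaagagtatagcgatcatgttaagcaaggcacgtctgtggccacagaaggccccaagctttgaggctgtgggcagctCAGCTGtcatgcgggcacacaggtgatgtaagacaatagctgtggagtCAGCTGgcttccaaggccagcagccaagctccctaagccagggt
Chrng at chr1:87205561-87205810, plus strand: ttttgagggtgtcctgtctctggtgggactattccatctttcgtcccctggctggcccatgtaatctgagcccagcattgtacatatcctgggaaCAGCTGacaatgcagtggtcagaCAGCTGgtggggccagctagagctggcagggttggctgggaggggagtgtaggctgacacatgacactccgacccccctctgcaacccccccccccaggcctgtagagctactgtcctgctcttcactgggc
Chrna1 had 7.18, 6.78 and 7.05 at E15.5 and 8.68, 8.63 and 8.67 at E14.5, 3.15-fold lower, and Chrng fell by 1.61 ± 0.14.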

How the data were processed

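Each stage gave 3 pools of brown fat RNA, with 1 MoGene-2_0-st array for each pool. Per the submitters' processing notes, the authors used Partek 7.0 and RMA, and the deposited table holds log2 values for 30915 gene-level entries; probe annotation and genome build are not given in the sources used here. Detection calls were not used, and the number of arrays limits the precision. Of the entries, 26677 carried a current symbol and 999 an older one; 13 symbols spoiled into dates were left unnamed. On 10.9% of entries the deposited value was the same on 3 or more of the 6 arrays, which lowers the spread between replicates.

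E15.5 minus E14.5 was fitted on the 6 arrays with limma 3.58.1 in R 4.3.3 (lmFit and eBayes, no covariate; prior SD 0.0762 with 3.05 degrees of freedom), and p-values were adjusted over all entries. Passing meant an adjusted p under 0.05. The fit was tested on simulated data. Arrays were summarised in Python with pandas.

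Members and 62 gene lists were chosen with earlier results of these data known; 68 false matches to name patterns were removed by identity. Genes named were the 15 largest rises and falls, up to 4 per list and direction, floor crossers and partners of such genes. Gene models were left out. The largest changes and those taken per list had to pass, change at least 2-fold and show no overlap between stages. The miRNA genes, the cell type and best-known markers and other list members given beside a count were chosen after their values were seen. Alternatives covered all 9 arrays, 2 scalings, a dim-gene filter, the replicate block, left-out arrays, the floor and the fold threshold.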

Additional observations from a re-analysis of the deposited data

How the results depend on the processing

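No call changed direction among the 702 genes checked under the alternatives run. With all 9 arrays in the fit, 2803 entries rose and 3472 fell; without E16.5 replicate 2, which stands apart from its stage, 4413 rose and 4640 fell. Of the calls of at least 2-fold, all 503 risers and 720 of the 721 fallers were shared with the 9-array fit. Quantile normalization gave 538 and 674, median centring 514 and 704. Of 125 counts of list members at 2-fold, 5 moved by over 1.5 times under quantile normalization, 1 under median centring and 2 to 6 with 1 array left out; all were counts of 3 or fewer as reported. Calcium handling genes that fell numbered 3 as reported and up to 8 (without E15.5 replicate 1), and Cdkn1c was the 1 cell cycle gene that fell, against 0 without E15.5 replicate 2 or 3 or E14.5 replicate 1 or 3. Leaving out 1 array gave 491 to 522 risers and 708 to 753 fallers at 2-fold, 3770 to 4032 and 4044 to 4339 in all, 6 to 10 and 26 to 41 floor crossers, and 42 to 45 miRNA entries of the chromosome 12 stretch. At 1.5-fold (for gene lists and for the miRNA stretch, the alternatives were added after seeing the data) the counts were 1417 risers and 1887 fallers, 32 and 124 transcription factors, 35 and 185 secreted genes, and 71 and 250 surface genes, by construction of the lower threshold. Floor crossings depended on the floor: 2 upward and 15 downward with the 90th percentile, 51 and 105 with the 99th, and 18 downward once dim genes were left out. Without the muscle list, also added after seeing the data, 42 transcription factors, 91 secreted genes and 110 surface genes fell at least 2-fold. Calls near the threshold were lost for 48 genes under some alternative, Vaultrc5, Adra2c and Unc5b among them.

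Pools of different stages share a replicate number and no known pairing. Deviations of same-numbered arrays correlated at 0.012, 0.08 and -0.134, so the numbers were not taken as pairs. With the replicate block, 4244 entries rose and 4448 fell, 504 and 722 of them at least 2-fold. Genes near the floor have compressed changes, and 3 arrays per stage limit what can be called.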

Other observations

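Blood and vessel genes did not move together. The embryonic globin Hbb-y had 8.32, 8.29 and 8.32 at E15.5 and 9.39, 9.44 and 9.65 at E14.5, and Hbb-bh1 and Hba-x fell by 0.86 and 0.65 on the log2 scale, while the adult globins Hbb-bs (-0.04), Hbb-bt (0.06), Hba-a1 (0.08) and Hba-a2 (-0.06) did not pass limma's test. Of 22 endothelial markers, 2 rose (9.09%, against 14.7% of all entries) and 7 fell (31.8%, against 15.3%), with a median of -0.04. The rest did not pass, among them the general endothelial markers Pecam1 (-0.09), Cdh5 (-0.08), Flt1 (-0.07) and Erg (-0.04). Gpihbp1, which anchors lipoprotein lipase on capillaries, rose by 0.76 and the tight junction gene Cldn5 by 0.64, whereas the lymphatic regulator Prox1 (-1.26) and Lyve1 (-0.63) and the large-vessel gene Vwf (-1.0) fell. The transferrin receptor Tfrc, used by red cell precursors and by other cells that take up iron, rose 4.49-fold, with 10.37, 10.42 and 10.56 at E15.5 and 8.38, 8.16 and 8.32 at E14.5. Of 13 mural and smooth muscle markers, 4 rose (30.8%) and 7 fell (53.8%). The pericyte gene Rgs5 rose 3.02-fold and the smooth muscle myosin Myh11 by 0.71, while the contractile genes Acta2 (-0.71) and Tagln (-0.91) fell.

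Muscle genes did not fall by equal amounts. Changes over the 37 markers ran from -2.42 for Mybph to -0.07 for Pax3, with titin, Ttn, at -1.59 and the creatine kinase Ckm at -0.31.

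Dct and Pmel, genes of pigment cells, fell by 2.19 and 1.72, but Tyr (-0.07), Tyrp1 (-0.04) and Mlana (0.04) did not pass. The long noncoding RNA Lncbate1, known from brown fat, rose by 2.22 ± 0.13.

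Xist, expressed from the inactive X chromosome of females, had 10.20, 5.02 and 10.87 at E15.5 and 11.46, 10.87 and 11.25 at E14.5. The Y-linked Ddx3y had 8.35, 9.0 and 8.08 at E15.5 and 7.50, 8.09 and 7.36 at E14.5. E15.5 replicate 2 thus had the lowest Xist and the highest Ddx3y of its stage. Ddx3y, Eif2s3y and Uty were 0.74 to 1.04 higher at E15.5 and did not pass; Kdm5d passed at an adjusted p of 0.0482 and lost that call under some alternatives. Sex of the pools is not given by the labels, and its part in other genes was not tested; leaving out E15.5 replicate 2 is among the left-out arrays above.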
